A study of Mus musculus with 6 samples.

Results

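The 10 genes described here carry the calcium cycle of the heart muscle cell: Atp2a2, Pln, Ryr2, Casq2, Trdn, Asph, Slc8a1, Camk2d, Cacna1c and Jph2. They were taken by gene symbol from a deposited table of 54352 rows, and all 10 were found and were among the 13094 genes tested. RNA of mouse heart tissue had been sequenced in 6 libraries, 2 in each of 3 groups. The T2D dnMCUb group held C57BL/6 mice in which diabetes was induced at 12 weeks of age with 1 dose of streptozotocin, 75 mg/kg, and a diet drawing 60% of calories from fat, and which then received an adeno-associated virus (AAV) for a FLAG-tagged, point-mutated, dominant negative MCUb. MCUb is a pore-forming paralog that dampens the mitochondrial calcium uniporter. The T2D empty vector group had the same diet, streptozotocin and strain and an AAV without a transgene. Type 2 diabetes (T2D) was defined at week 20 of the diet, virus was injected by jugular vein between weeks 16 and 18 from streptozotocin, and hearts were studied 4 weeks later, 5 to 6 months from induction. The Control group was kept on chow and, per the labels, carried no transgene and no disease, and no virus is named for it. Control mice thus differed from both diabetic groups in diet, streptozotocin and, as far as the labels say, virus at once, and effects of these cannot be told apart. Which promoter drove the transgene and which cells the virus reached is not stated in the labels. Whether a group's 2 libraries are 2 mice is not stated either, and the p-values describe the spread of libraries, which may be technical.

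In the heart muscle cell, calcium that enters through the L-type channel of the surface membrane opens ryanodine receptors on the sarcoplasmic reticulum, an internal store, and the calcium released there starts contraction. Relaxation follows as the SERCA pump returns calcium to the store and a sodium-calcium exchanger carries the rest out of the cell. Junctophilin holds the membranes close together at the dyad, calsequestrin buffers calcium inside the store, and a calcium-activated kinase tunes the pump, the release channel and the L-type channel. Lower pump activity and a leaky release channel are known features of failing and diabetic hearts.

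Values are rlog, a regularized logarithm of scaled counts on the log2 scale, as the authors deposited it. Depth is unknown for every library, because no counts were in the table. On the first principal component, which held 46.7% of the variance between libraries, library 1 labelled dnMCUb had a score of 10.82, and the others had scores from -4.42 to 2.69. Mcub, the gene the vector carries in mutated form, had 5.62 and 5.47 rlog with the dnMCUb label, against 5.48 and 5.46 rlog for T2D empty vector and 5.42 and 5.47 rlog for Control, so the table does not check the dnMCUb label. The tissue label fits the markers of heart muscle: all 10 cardiomyocyte markers listed lay between 14.24 and 19.47 rlog in every library.

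T2D empty vector against Control asks what diabetic induction with an empty virus did to the calcium cycle. No member passed limma's test after Benjamini-Hochberg adjustment over all genes tested, and neither did any other gene (0.0% of 13094). By their values the members divided. Casq2, Asph, Slc8a1 and Camk2d had both T2D empty vector libraries under both Control libraries, whereas the pump, its inhibitor and the channels lay close to Control. Differences were small: over the 10 members they ran from -0.16 to 0.08 on the log2 scale, with a median of -0.06, against a median of -0.0025 over all genes tested.

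Among genes of the calcium store, Casq2, which encodes cardiac calsequestrin, had 14.35 and 14.31 rlog in T2D empty vector and 14.47 and 14.47 rlog in Control. Asph, whose short products include junctin, an anchor of calsequestrin at the release channel, had 10.23 and 10.24 rlog in T2D empty vector and 10.36 and 10.42 rlog in Control. Trdn, encoding triadin, the other anchor, had 12.57 and 12.56 rlog in T2D empty vector and 12.67 and 12.57 rlog in Control. Casq2 and Asph did not overlap between the groups, while the second Control library of Trdn lay level with T2D empty vector. The log2 difference was -0.15 for Casq2 (SE 0.07), -0.15 for Asph (SE 0.05) and -0.06 for Trdn (SE 0.06).

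Slc8a1, the sodium-calcium exchanger NCX1 and the main route of calcium out of the cell, had 13.71 and 13.67 rlog in T2D empty vector and 13.83 and 13.86 rlog in Control. Camk2d, the main cardiac isoform of the calcium- and calmodulin-dependent kinase CaMKII, had 9.81 and 9.90 rlog in T2D empty vector and 10.002 and 10.016 rlog in Control. In both genes every T2D empty vector library was under every Control library. The log2 difference was -0.16 for Slc8a1 (SE 0.07, 95% interval -0.33 to 0.01) and -0.16 for Camk2d (SE 0.05, 95% interval -0.27 to -0.04).

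Atp2a2, which encodes the SERCA2 pump, had 17.56 and 17.52 rlog in T2D empty vector and 17.57 and 17.51 rlog in Control. Its inhibitor Pln, phospholamban, had 17.27 and 17.18 rlog in T2D empty vector and 17.34 and 17.23 rlog in Control. The groups overlapped for both genes. The difference for Atp2a2 was -0.0006 on the log2 scale, with a 95% interval from -0.29 to 0.29, so changes within that range were not detectable with 2 libraries a group. For Pln the difference was -0.06, with an interval from -0.36 to 0.25.

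Ryr2, the ryanodine receptor through which the store releases calcium, went the other way in its libraries, with 15.91 and 15.94 rlog in T2D empty vector and 15.85 and 15.83 rlog in Control. Cacna1c, the pore of the L-type channel, had 12.23 and 12.28 rlog in T2D empty vector and 12.27 and 12.13 rlog in Control. Jph2, junctophilin 2, had 12.67 and 12.66 rlog in T2D empty vector and 12.66 and 12.77 rlog in Control. Of these only Ryr2 had groups that did not overlap, at a log2 difference of 0.08 (SE 0.10). That SE pools all 3 groups, and the SD of Ryr2 was 0.12 in T2D dnMCUb, against 0.02 in T2D empty vector and 0.01 in Control. Cacna1c stood at 0.06 (SE 0.09) and at -0.02 without Control library 2. Jph2 stood at -0.06 (SE 0.07).

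In counts, 4 of the 10 members lay lower in T2D empty vector with no overlap, against 22.5% of all genes tested, and 1 lay higher, against 19.9%. An unadjusted limma p under 0.05 was reached by 2 members on the lower side, Asph and Camk2d, where 2.87% of genes did so, and by 0 on the higher side. Adjusted p-values from limma with Benjamini-Hochberg adjustment ran from 0.759 to 1.0. An adjusted p under 0.05 was given to 0 members by the authors' deposited table, where 0.255% of genes had it. The authors' deposited table gave 4 members an unadjusted p under 0.05 and a negative fold, where 1.01% of its 28255 genes with a fold had both. Those genes were not held to the mean of 5 rlog that the 13094 genes tested had to reach. Shares from the authors' deposited table, here and below, thus include weakly expressed genes, and shares among the 13094 were not computed. The 4 members were the genes that did not overlap on the lower side. The log2 folds for them in the authors' deposited table were -0.21 for Casq2, -0.26 for Asph, -0.23 for Slc8a1 and -0.27 for Camk2d, larger in size than the rlog differences. The rlog transformation draws values towards each gene's mean.

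**Figure D1:**
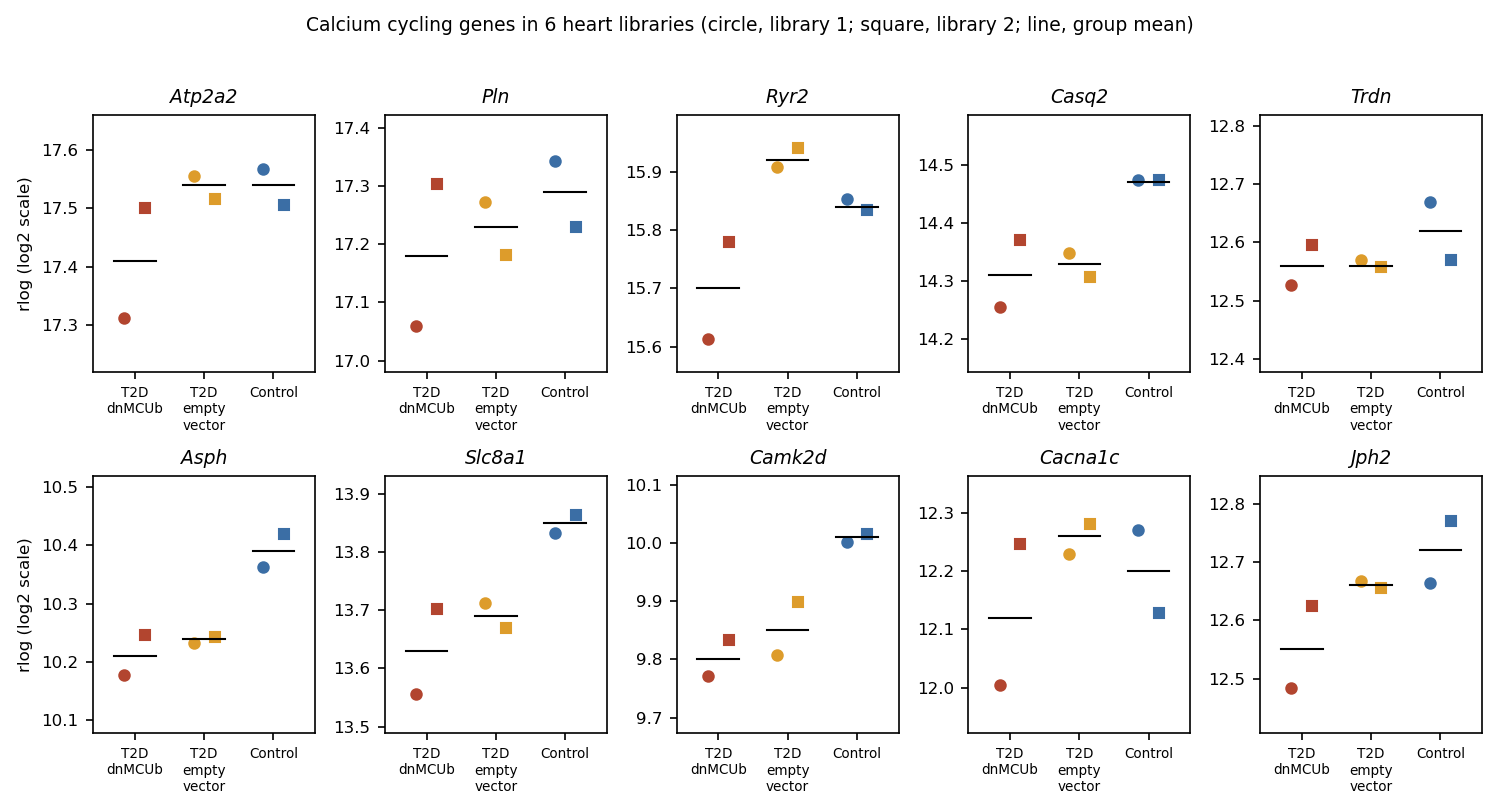
Level of each calcium cycling gene (rlog, log2 scale; all panels span the same height) in T2D dnMCUb, T2D empty vector and Control hearts; circles are library 1, squares library 2 and lines group means (n = 2 each). Casq2, Asph, Slc8a1 and Camk2d lie lower in all 4 diabetic libraries than in both Control libraries, and library 1 labelled dnMCUb is the lowest of the 6 in all 10 panels.

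Markers of cell types differed beside these values. All 10 cardiomyocyte markers were lower in T2D empty vector than in Control, with a median log2 difference of -0.14 and 0 past limma's adjusted test. Their summed level, as log2 of the sum, was 20.75 and 20.77 in T2D empty vector, against 20.92 and 20.84 in Control. All 7 fibroblast markers were above 0 in this comparison, at a median of 0.10, with summed levels of 14.74 and 15.05 in T2D empty vector, against 14.85 and 14.74 in Control. These sums overlapped, and only T2D empty vector library 2 lay above both Control libraries. Red cell markers were below 0 in 5 of 5, at a median of -0.40, and atrial markers in 5 of 6, at -0.48. The red cell sum was 12.64 for Control library 1 but 11.72 for Control library 2. T2D empty vector library 1 stood at 11.70 and library 2 at 11.73, so the red cell difference rested largely on Control library 1. Atrial markers overlapped by their mean deviation from each gene's mean. Control library 2, at -0.43, lay between T2D empty vector library 1 at -0.55 and library 2 at -0.19. In bulk tissue, fewer cells of a type and less RNA per cell cannot be told apart. The part of cell makeup in the members' differences was not tested.

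The members were therefore also expressed as a difference from the mean rlog of the 10 cardiomyocyte markers of the same library, a ratio chosen after their values had been seen. That marker mean was 16.61 and 16.58 rlog in T2D empty vector and 16.76 and 16.70 rlog in Control, a log2 difference of -0.14. By construction the lower marker mean raises every gene on this scale, and the median of all genes tested was 0.14. The 4 genes that lay lowest were close to 0: the T2D empty vector minus Control difference was -0.01 for Casq2, -0.01 for Asph, -0.02 for Slc8a1 and -0.02 for Camk2d. The others were above 0, at 0.22 for Ryr2, 0.20 for Cacna1c, 0.14 for Atp2a2 and 0.08 each for Pln, Trdn and Jph2. Against the median of all genes, Ryr2 and Cacna1c lay above it, Atp2a2 close to it and the other 7 below it. Ryr2 was at -0.70 and -0.64 relative to the markers in T2D empty vector, against -0.91 and -0.87 in Control. Atp2a2 was at 0.95 and 0.94 relative to the markers in T2D empty vector, against 0.80 and 0.80 in Control. Ryr2, Cacna1c, Atp2a2, Pln and Trdn, 5 of 10 members, lay higher with no overlap on this scale, where 87.9% of all genes tested did. These ratios describe unequal differences within the same libraries and were given no test.

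**Figure D2:**
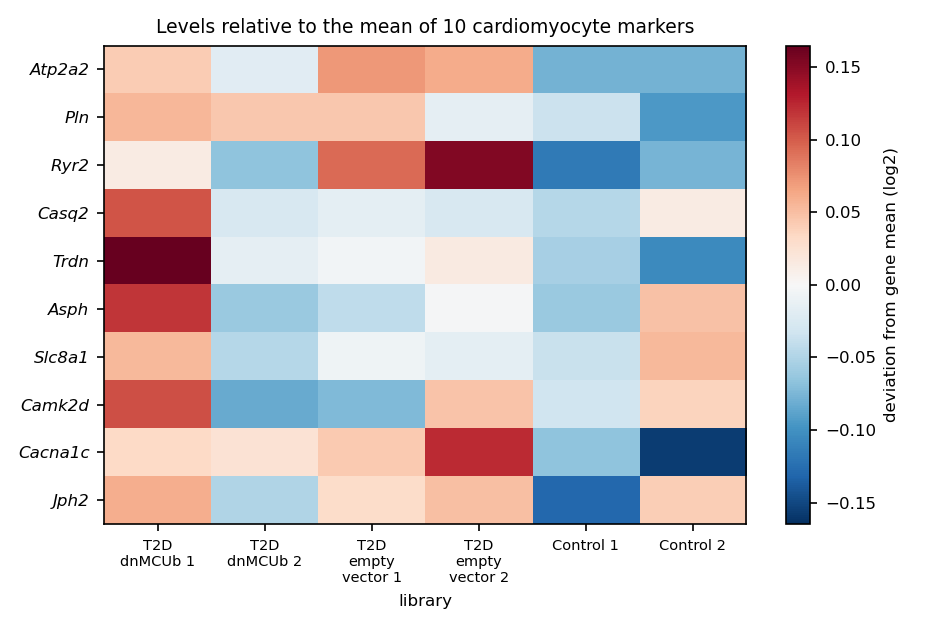
Each calcium cycling gene's rlog minus the mean rlog of 10 cardiomyocyte markers of the same library, shown as the deviation from the gene's mean over 6 libraries (log2, colour scale); columns are the libraries of T2D dnMCUb, T2D empty vector and Control. Ryr2, Atp2a2, Cacna1c, Pln and Trdn are higher in both T2D empty vector libraries than in both Control libraries on this scale, as 87.9% of all genes tested are.

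T2D dnMCUb against T2D empty vector asks what the transgene did within diabetic hearts. All 10 differences were below 0, with a median of -0.06 on the log2 scale (all genes tested, -0.00051), and 0 members passed limma's adjusted test, as 0.0% of genes did. The lower level rested largely on 1 library. Library 1 labelled dnMCUb was below library 2 in all 10 members, by 0.06 to 0.24 rlog, while 54.3% of all genes tested were lower in it. Without that library the median over the members was -0.0007.

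Ryr2 stood out among the members here, at 15.61 and 15.78 rlog in T2D dnMCUb and 15.91 and 15.94 rlog in T2D empty vector. Both T2D dnMCUb libraries lay under both T2D empty vector libraries, and under both Control libraries too. The log2 difference to T2D empty vector was -0.23 (SE 0.10, 95% interval -0.45 to -0.0049), with an unadjusted p of 0.0463 and an adjusted p of 0.869 by limma with Benjamini-Hochberg adjustment. Leaving out library 1 labelled dnMCUb gave -0.14, and leaving out library 2 gave -0.31. Ryr2 was the only member under an unadjusted p of 0.05, where 2.53% of genes were lower by that measure. In the authors' deposited table its log2 fold was -0.32 (p = 0.01, adjusted p = 1.0). That made 1 member with an unadjusted p under 0.05 in the authors' deposited table. Of the 28906 genes with a fold there, 0.253% had such a p and a negative fold. An adjusted p under 0.05 was held by 0 members and by 0.0311% of those genes.

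Atp2a2 had 17.31 and 17.50 rlog in T2D dnMCUb and 17.56 and 17.52 rlog in T2D empty vector. Jph2 had 12.48 and 12.63 rlog in T2D dnMCUb and 12.67 and 12.66 rlog in T2D empty vector. With Ryr2, these made 3 members that lay lower with no overlap, against 16.5% of all genes tested. The log2 difference was -0.13 for Atp2a2 (SE 0.13) and -0.11 for Jph2 (SE 0.07), and without library 1 labelled dnMCUb both were at -0.04. Cacna1c had 12.00 and 12.25 rlog in T2D dnMCUb and 12.23 and 12.28 rlog in T2D empty vector, so that the groups overlapped at a difference of -0.13 (SE 0.09), which moved to -0.0095 when library 1 labelled dnMCUb was left out and to -0.251 when library 2 was.

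Pln had 17.06 and 17.30 rlog in T2D dnMCUb on either side of 17.27 and 17.18 rlog in T2D empty vector. Casq2 had 14.25 and 14.37 rlog in T2D dnMCUb, which spanned the 14.35 and 14.31 rlog of T2D empty vector. Slc8a1 had 13.56 and 13.70 rlog in T2D dnMCUb, against 13.71 and 13.67 rlog in T2D empty vector. In these genes library 1 labelled dnMCUb was below both T2D empty vector libraries and library 2 was not. Asph had 10.18 and 10.25 rlog in T2D dnMCUb, Trdn 12.53 and 12.60 rlog and Camk2d 9.77 and 9.83 rlog, all overlapping T2D empty vector. The log2 differences of these 6 genes ran from -0.06 for Slc8a1 to -0.0031 for Trdn.

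Library 1 labelled dnMCUb also stood apart in its cell type markers. Its cardiomyocyte markers summed to 20.46 on the log2 scale, the lowest of the 6 libraries, against 20.79 in library 2 and 20.75 and 20.77 in T2D empty vector. Its fibroblast markers summed to 15.33, its smooth muscle markers to 13.46 and its atrial markers to 12.59, each the highest of the 6. The atrial markers of library 2 labelled dnMCUb summed to 11.05. For T2D empty vector the atrial sums were 11.03 and 11.22, and for Control 11.93 and 11.59. Macrophage markers summed to 12.81 and 12.65 in T2D dnMCUb and 12.62 and 12.56 in T2D empty vector, and red cell markers to 12.47 and 13.00 in T2D dnMCUb and 11.70 and 11.73 in T2D empty vector. No marker of any of the 9 cell type lists was listed at 0 in every library. The part of these cells in the members' values was not tested. Relative to the cardiomyocyte marker mean, the T2D dnMCUb minus T2D empty vector difference was -0.15 for Ryr2 and between -0.05 and 0.07 for the other 9 members. The median of all genes tested was 0.08, as the lower marker mean raises every gene by construction. On this scale 3 members, Ryr2, Atp2a2 and Cacna1c, lay lower with no overlap, where 0.489% of genes tested did. That share is small by construction, because the scale shifts genes upwards. It is therefore no yardstick for genes that move with the cardiomyocyte markers. Cacna1c lay lower only narrowly, at -4.39 and -4.40 in T2D dnMCUb against -4.38 and -4.30 in T2D empty vector. No test was made of these ratios.

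**Figure D3:**
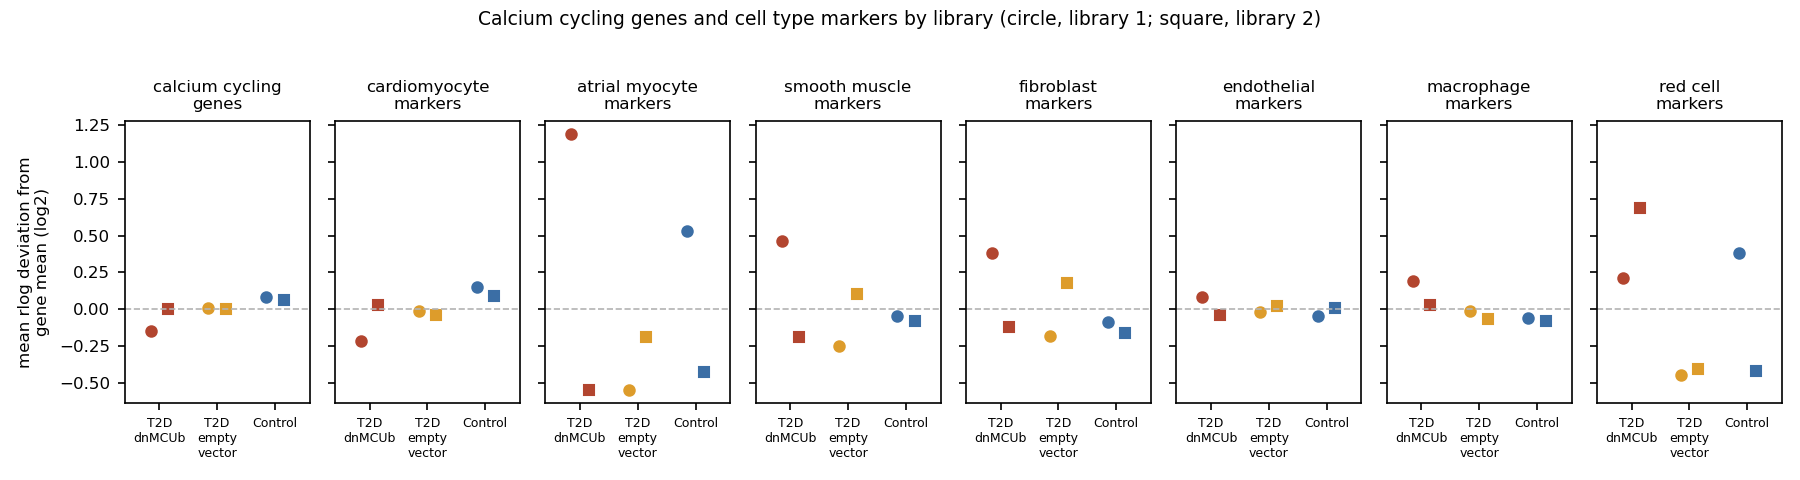
Mean deviation of rlog from each gene's mean over 6 libraries (log2), for the 10 calcium cycling genes and for 7 marker lists (genes tested), in T2D dnMCUb, T2D empty vector and Control; circles are library 1 and squares library 2. The calcium cycling genes were at -0.15 and the cardiomyocyte markers at -0.22 in library 1 labelled dnMCUb, the lowest of 6 in both panels, where the atrial markers were at 1.19.

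T2D dnMCUb against Control shares its libraries with the other comparisons, so it is not a separate line of support. All 10 differences were again below 0, with a median of -0.15 on the log2 scale (all genes tested, -0.0023). Leaving out library 1 labelled dnMCUb moved that median to -0.0783, and leaving out library 2 moved it to -0.225. No member passed limma's adjusted test, which 0.0687% of genes passed. The members' adjusted p-values ran from 0.208 to 0.767 by limma with Benjamini-Hochberg adjustment. Camk2d had 9.77 and 9.83 rlog in T2D dnMCUb and 10.002 and 10.016 rlog in Control, at a difference of -0.21 (SE 0.05). Slc8a1 had 13.56 and 13.70 rlog in T2D dnMCUb and 13.83 and 13.86 rlog in Control, at -0.22 (SE 0.07). Asph had 10.18 and 10.25 rlog in T2D dnMCUb and 10.36 and 10.42 rlog in Control, at -0.18 (SE 0.05). These 3 were the members with an unadjusted limma p under 0.05, where 5.54% of genes were lower by that measure. Slc8a1 and Camk2d passed the adjusted test in 1 of the alternatives run, when library 2 labelled dnMCUb was left out, at an adjusted p of 0.0333 and 0.047 in limma with Benjamini-Hochberg adjustment, in a fit where 743 genes passed. Without library 1 labelled dnMCUb they stood at -0.15 and -0.17, with adjusted p-values of 0.451 and 0.315 in limma with Benjamini-Hochberg adjustment.

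Atp2a2, Ryr2, Casq2, Asph, Slc8a1, Camk2d and Jph2 lay lower in T2D dnMCUb with no overlap, 7 of 10 members against 22.7% of all genes tested. Pln, Trdn and Cacna1c overlapped Control, at log2 differences of -0.10, -0.06 and -0.07. An adjusted p under 0.05 was given to 0 members by the authors' deposited table, where 0.357% of its 29159 genes with a fold had it. In the authors' deposited table Slc8a1, Camk2d, Casq2 and Asph, 4 members, had an unadjusted p under 0.05 and a negative fold. Of those 29159 genes, 1.07% had both. The 10 cardiomyocyte markers were all lower as well, at a median of -0.20. All 7 fibroblast markers (median 0.24), all 9 macrophage markers (0.19) and all 5 red cell markers tested (0.46) were above 0. Red cell sums overlapped, at 12.47 and 13.00 in T2D dnMCUb against 12.64 and 11.72 in Control. Fibroblast sums overlapped too, at 15.33 and 14.82 in T2D dnMCUb against 14.85 and 14.74 in Control. The part of these cells in the members' differences was not tested. Relative to the cardiomyocyte marker mean the members' differences were between -0.003 for Slc8a1 and 0.16 for Trdn, under the median of 0.21 for all genes tested on that scale.

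**Figure D4:**
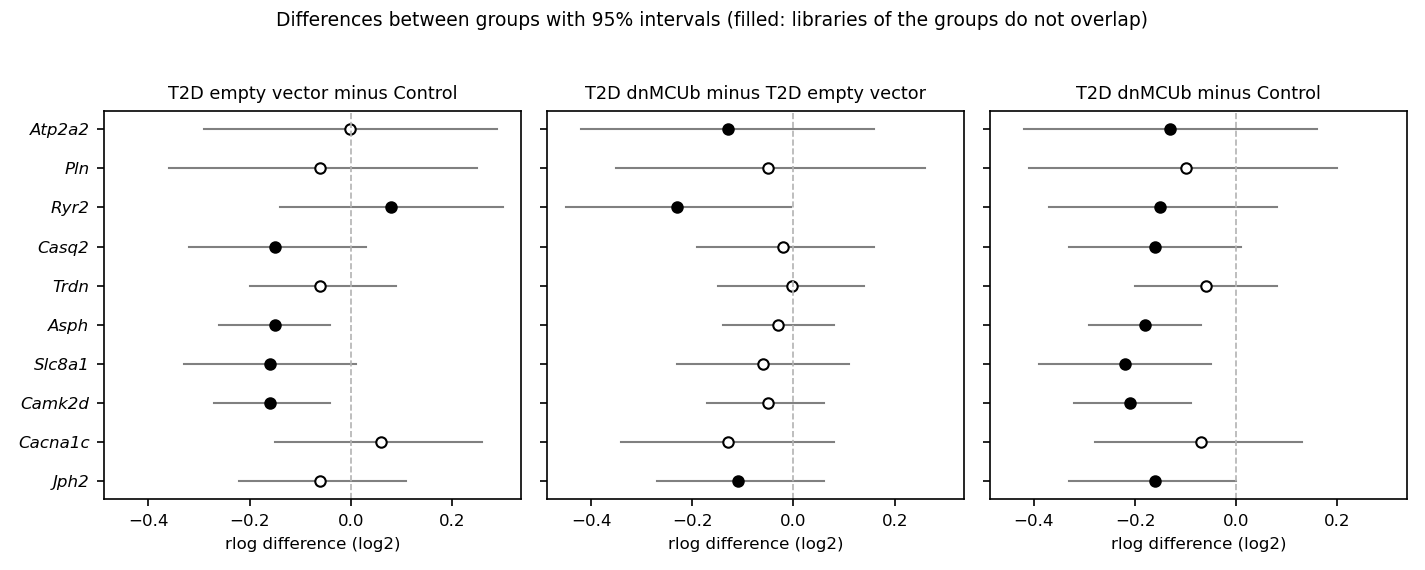
Difference of mean rlog (log2, horizontal axis) of each calcium cycling gene with limma's 95% interval, for T2D empty vector minus Control, T2D dnMCUb minus T2D empty vector and T2D dnMCUb minus Control; filled points mark groups of 2 libraries that do not overlap. In the middle panel every point is at or below 0 and Ryr2 is lowest at -0.23, while in the left panel Casq2, Asph, Slc8a1 and Camk2d lie between -0.16 and -0.15.

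Casq2, Asph, Slc8a1 and Camk2d were lower in all 4 diabetic libraries than in both Control libraries, 4 of 10 members against 11.9% of all genes tested. This was not particular to calcium cycling genes. Of the 10 cardiomyocyte markers, Tnnt2, Actc1, Myl2, Myl3, Ckm and Ttn also lay lower in all 4 diabetic libraries. Myh6, Mb and Actn2 overlapped Control, and Tnni3 was level with it at 16.15 rlog in 1 library of each. Among the members, the gap between the highest diabetic and the lowest Control library was 0.10 rlog for Casq2, 0.12 for Asph, 0.12 for Slc8a1 and 0.10 for Camk2d. The same 4 members were found without library 1 labelled dnMCUb, where 14.2% of genes were lower in this way. Without Control library 2, members lower in this way numbered 7, against 24.2% of genes. With quantile normalization Casq2 left the 4 members, which then numbered 3, against 12.4% of genes. Over the 6 libraries the pairs among the 4 members, which were taken for a shared pattern, had Pearson correlations from 0.87 for Casq2 and Camk2d to 0.98 for Casq2 and Slc8a1. Atp2a2 and Ryr2 had 0.89, and the weakest pair was Asph and Cacna1c at 0.20. These correlations describe 6 libraries in 3 groups that share library 1 labelled dnMCUb as their lowest point.

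Promoter windows of RefSeq (GRCm38.p6, 250 bases before to 50 after a gene start) were read for 7 of the 10 members, which gave 10 windows. Those of Casq2, Slc8a1 and Camk2d are shown because these genes lay lower in all 4 diabetic libraries, and that of Pln because it overlapped Control. Capitals mark matches to the MEF2 motif, bound by a muscle transcription factor family, in Casq2, and to GATAA on either strand, the core of GATA factor sites, in Slc8a1 and Pln. The windows are chr3:102086165-102086464 on the plus strand for Casq2, chr17:81738338-81738637 on the minus strand for Slc8a1, chr3:126596701-126597000 on the plus strand for Camk2d and chr10:53337436-53337735 on the plus strand for Pln.
Casq2: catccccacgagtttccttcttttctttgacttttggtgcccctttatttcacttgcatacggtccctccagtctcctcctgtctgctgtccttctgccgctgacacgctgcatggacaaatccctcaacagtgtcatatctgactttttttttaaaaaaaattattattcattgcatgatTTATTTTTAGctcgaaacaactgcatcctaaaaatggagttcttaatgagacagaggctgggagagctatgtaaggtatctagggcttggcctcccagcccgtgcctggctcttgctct
Slc8a1: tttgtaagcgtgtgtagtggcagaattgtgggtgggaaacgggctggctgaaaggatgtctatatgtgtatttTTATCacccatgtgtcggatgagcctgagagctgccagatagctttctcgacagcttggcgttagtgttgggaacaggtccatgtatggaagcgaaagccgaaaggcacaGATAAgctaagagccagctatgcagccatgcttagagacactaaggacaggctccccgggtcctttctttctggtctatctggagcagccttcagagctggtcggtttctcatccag
Camk2d: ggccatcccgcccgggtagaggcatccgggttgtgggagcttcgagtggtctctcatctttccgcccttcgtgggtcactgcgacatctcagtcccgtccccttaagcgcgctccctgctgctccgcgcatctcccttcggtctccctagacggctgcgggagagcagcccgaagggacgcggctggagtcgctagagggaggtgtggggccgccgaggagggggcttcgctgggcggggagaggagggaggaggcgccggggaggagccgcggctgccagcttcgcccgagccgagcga
Pln: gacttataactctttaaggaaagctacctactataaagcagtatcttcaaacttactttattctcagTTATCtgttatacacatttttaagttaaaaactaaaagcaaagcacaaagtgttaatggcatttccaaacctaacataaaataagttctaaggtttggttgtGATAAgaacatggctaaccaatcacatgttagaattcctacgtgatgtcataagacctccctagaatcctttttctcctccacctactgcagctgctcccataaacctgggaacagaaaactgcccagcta
The Casq2 window was the only member window with a MEF2 match, 69 bases before the start, and 3.19% of the 32851 windows of the table hold such a match. GATAA occurred 2 times each in the Slc8a1 and Pln windows and in 25.4% of all windows. The E-box CANNTG, searched likewise, was in 72.3% of all windows and in every member window but that of Camk2d, and the CArG box, in 1.63% of all windows, was in none of the 10. The Camk2d window was 70.3% G or C, against 44.7% for Casq2, 50.7% for Slc8a1 and 36.0% for Pln. The RefSeq starts of Slc8a1 and Camk2d lie 88780 and 205989 bases from the start of the transcript named in the deposited table. A match or its absence describes these letters only.

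By the members' mean deviation over the 6 libraries, library 1 labelled dnMCUb was at -0.15, library 2 at -0.0027, T2D empty vector at 0.01 and 0.0023 and Control at 0.08 and 0.06 log2. Of 1253 other genes with an SD over libraries of at least 0.1, those most like this profile were Myom1, a structural protein of the sarcomere's M-band, at a Pearson correlation of 0.989 over 6 libraries, and Coq8a, needed for coenzyme Q synthesis, at 0.988. Dnaja3, a mitochondrial co-chaperone, and D10Jhu81e followed at 0.978 each, and Pygm, muscle glycogen phosphorylase, at 0.976. Myom1 itself had 14.92 and 15.16 rlog in T2D dnMCUb, 15.15 and 15.14 in T2D empty vector, against 15.23 and 15.22 in Control. In all, 96 of the 1253 genes had a correlation over 0.9.

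Around the members, 6 lists of further calcium handling genes held 94 genes, of which 80 were tested. None passed limma's adjusted test, neither higher nor lower, in any of the 3 comparisons. In T2D empty vector against Control 2 of the 80 were higher and 6 lower at an unadjusted p under 0.05, where 3.26% of all genes tested were higher and 2.87% lower. In T2D dnMCUb against T2D empty vector 1 was higher (3.12% of genes) and 0 lower (2.53%), and in T2D dnMCUb against Control 2 were higher (5.89% of genes) and 10 lower (5.54%). The median difference of the 80 was -0.01, -0.00015 and -0.01 log2 in these comparisons, beside -0.06, -0.06 and -0.15 for the members.

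Among other genes of the pump and store, Hrc, a calcium-binding protein of the store that regulates the pump and release, had 13.52 and 13.73 rlog in T2D dnMCUb, 13.64 and 13.70 in T2D empty vector, against 13.86 and 13.85 in Control. Both diabetic groups lay under Control with no overlap, at log2 differences of -0.22 (SE 0.08) for T2D dnMCUb and -0.18 (SE 0.08) for T2D empty vector. Calr, the calcium-binding chaperone calreticulin, had 12.13 and 12.20 rlog in T2D dnMCUb, 11.89 and 12.00 in T2D empty vector, against 12.09 and 12.20 in Control. It was low in T2D empty vector alone, at -0.20 (SE 0.07) against Control, and T2D dnMCUb was 0.22 (SE 0.07) above T2D empty vector. Tmem38a, a cation channel of the store, was at -0.19 (SE 0.07) in T2D dnMCUb against Control, and Tmem38b, its relative, at 0.12 (SE 0.04) in T2D empty vector against Control. Sln, sarcolipin, an inhibitor of the pump that marks atrial muscle, had 7.55 and 6.11 rlog in T2D dnMCUb and 6.12 and 6.22 rlog in T2D empty vector, so that its difference of 0.66 (SE 0.44) rested on library 1 labelled dnMCUb. Atp2a3, another SERCA pump, was at 0.15 (SE 0.07) in T2D dnMCUb against Control, and Srl, the store's calcium-binding protein sarcalumenin, at -0.07 (SE 0.08) in T2D dnMCUb against T2D empty vector.

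Among the channel's partners, Akap5, which anchors kinase A and calcineurin at the L-type channel, was the listed gene with the smallest adjusted p. It had 7.60 and 7.54 rlog in T2D dnMCUb, 7.64 and 7.72 in T2D empty vector, against 7.84 and 7.93 in Control. All 4 diabetic libraries lay under both Control libraries. The log2 difference to Control was -0.31 in T2D dnMCUb (SE 0.05, adjusted p = 0.0742 by limma with Benjamini-Hochberg adjustment) and -0.20 in T2D empty vector (SE 0.05, adjusted p = 0.622 by limma with Benjamini-Hochberg adjustment). Rem1 and Gem, small GTPases that restrain the channel, were both at 0.08, Rem1 in T2D empty vector and Gem in T2D dnMCUb, against Control.

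At the dyad, Cmya5, a large protein that ties the store to the Z-disc, had 14.77 and 14.87 rlog in T2D dnMCUb, 15.03 and 14.97 in T2D empty vector, against 15.05 and 15.04 in Control. Like Ryr2 it had both T2D dnMCUb libraries under both T2D empty vector libraries, at a log2 difference of -0.18 (SE 0.08). Ehd1 was at 0.24 (SE 0.06) in T2D dnMCUb against Control, Ehd4 at -0.19 (SE 0.08) and Dysf, the membrane repair protein dysferlin, at 0.16 (SE 0.05) in T2D empty vector against Control. Ehd1 and Ehd4 both encode membrane-shaping ATPases. Bin1, which bends T-tubule membrane, was at 0.09 (SE 0.05) in T2D dnMCUb against T2D empty vector.

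Of the routes out of the cell and the mitochondria, Slc8b1, the mitochondrial sodium-calcium exchanger, was at 0.11 (SE 0.03) in T2D dnMCUb against Control, and Atp2b1, a plasma membrane calcium pump, at -0.05 (SE 0.05) in T2D dnMCUb against T2D empty vector. In calcium signalling, Camk1 was at -0.11 (SE 0.04) in T2D empty vector against Control and 0.09 (SE 0.04) in T2D dnMCUb against T2D empty vector. The calcineurin regulator Rcan1 was at -0.14 (SE 0.06) in T2D dnMCUb against Control, and its relative Rcan2 at -0.12 (SE 0.06) in T2D dnMCUb against T2D empty vector. Camkk1 was at 0.07 (SE 0.03) in T2D dnMCUb against Control and Nfatc2 at 0.04 (SE 0.03) in T2D empty vector against Control.

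How far a row stands for its whole gene differs between members. Each row of the table names a single transcript, whose exons cover 4.0% of the merged exonic bases of Camk2d, 7.3% of Asph and 15.5% of Slc8a1. The share was 35.8% for Cacna1c, 48.3% for Trdn, 58.4% for Ryr2 and 73.8% for Atp2a2, and 84.6% for Pln, 93.4% for Casq2 and 99.0% for Jph2. Neither labels nor table say if reads were counted on that transcript or on the whole gene, so the isoforms behind the Camk2d, Asph and Slc8a1 values are unknown. Exons on the opposite strand overlap the Pln transcript (Cep85l over 141 bases and Gm47644 over 1372 bases), and the strand setting of the counting is not given, so the reads of these genes cannot be told apart.

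On GRCm38, in the table's coordinates of the named transcripts, Atp2a2 (ENSMUSG00000029467.15) spans chr5:122456340-122502225 on the minus strand and Pln (ENSMUSG00000038583.13) chr10:53337693-53345987 on the plus strand. Ryr2 (ENSMUSG00000021313.16) spans chr13:11553102-12106945 on the minus strand in 105 exons, and Casq2 (ENSMUSG00000027861.13) chr3:102086415-102146514 on the plus strand. Slc8a1 (ENSMUSG00000054640.14) spans chr17:81388691-81649607 on the minus strand, and Camk2d (ENSMUSG00000053819.16) chr3:126802940-126843174 on the plus strand. Asph (ENSMUSG00000028207.18) spans chr4:9621696-9669162 on the minus strand and Trdn (ENSMUSG00000019787.9) chr10:33083483-33476709 on the plus strand. Cacna1c (ENSMUSG00000051331.15) spans chr6:118592942-119108189 and Jph2 (ENSMUSG00000017817.11) chr2:163336242-163397949, both on the minus strand.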

How the data were processed

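The deposited table holds rlog values, which the authors placed on the log2 scale, together with the authors' log2 folds, p-values and adjusted p-values for 3 comparisons, credited as such where printed. Total RNA depleted of ribosomal RNA went into a stranded library kit, per the labels' protocols. STAR 2.5.2a, DESeq2 and bcl2fastq 2.20.0.422 are tools, and GRCm38, mm10 and hg38 builds, that the submitters' processing notes list without roles. The counting program is not given in the sources used here. The authors' deposited length column gives bases of the named transcript. Of 54352 rows, 22778 held 1 value in all libraries. GENCODE M21 held the transcripts of 53565 rows, all at the same coordinates. Dates in place of 26 symbols were restored.

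Genes averaging 5 rlog or more, 13094 in number, entered limma 3.58.1 (R 4.3.3), with all 6 libraries in 1 fit, a term per group, a mean-variance trend and Benjamini-Hochberg adjustment at 0.05. The fit was tested on simulated data. With 2 libraries a group, exact permutation could reach no p under 0.333. Errors beside differences are limma's standard errors, which pool the spread of all 3 groups, also where 2 groups are compared. The members and lists were chosen with earlier results of these data known. From each calcium handling list the text names, per comparison, the gene of smallest p in each direction. A gene that this rule names is not reported here. Alternatives were other filters and scalings, array weights, no trend, 2-group fits, a replicate block and leaving out each library.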

Additional observations from a re-analysis of the deposited data

How the results depend on the processing

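No member was called under any alternative, except Slc8a1 and Camk2d in T2D dnMCUb against Control without T2D dnMCUb library 2 (0 to 2 members over fits leaving out a library, some of which leave a lone library assumed to vary like the others). Genes called in T2D empty vector against Control, 0 in all 6 libraries, were 5 with array weights, 30 in the 2-group fit and 0 to 30 without a library (30 without either T2D dnMCUb library). In T2D dnMCUb against Control the 9 became 0 without the filter, at a mean rlog of at least 8, with equal medians, quantile normalization, no trend, the replicate block or 2 groups, 16 with array weights and 0 to 743 without a library (89 without T2D dnMCUb library 1, 743 without library 2). In T2D dnMCUb against T2D empty vector they were 0 to 14 without a library (14 without T2D dnMCUb library 1). Whether replicate numbers pair libraries is not stated in the labels. Same-numbered deviations correlated at -0.088, -0.013 and -0.511. No member was called with the replicate block or in the main fit, so the block does not settle this. Medians of the members without a library were -0.11 (without Control library 2) to -0.0489 in T2D empty vector against Control and -0.225 to -0.0783 in T2D dnMCUb against Control. Quantile normalization gave a median of -0.0377 in T2D dnMCUb against Control, put Pln at 0.0658 against Control in each diabetic group, Casq2 at 0.0196 and Trdn at 0.0308 in T2D dnMCUb against T2D empty vector, Atp2a2 at 0.0 in all 3, Ryr2 at 0.0 in T2D dnMCUb and 0.146 in T2D empty vector against Control, and Casq2 at -0.0272 in T2D dnMCUb and -0.0468 in T2D empty vector against Control. Without a library, differences that changed sign ran, in T2D empty vector against Control Atp2a2 -0.0317 to 0.0305 and Cacna1c -0.0154 to 0.128, in T2D dnMCUb against T2D empty vector Asph -0.06 to 0.00809, Casq2 -0.0732 to 0.042, Pln -0.166 to 0.0761, Slc8a1 -0.135 to 0.0108 and Trdn -0.0377 to 0.0314, in T2D dnMCUb against Control Cacna1c -0.195 to 0.0466 and Pln -0.225 to 0.0171. Members lower in all diabetic libraries were 4 to 7 without a library, where 14.2% to 24.2% of genes tested were. With quantile normalization they were 3, without Casq2, where 12.4% of genes were. Quantile normalization gives each value the mean for its rank, so the highest genes move only in steps between ranks. A gene that keeps its rank reads exactly 0.0. The values of 0.0 given above for Atp2a2 and Ryr2 thus do not show that a difference vanished. All alternatives were chosen after seeing the data. Causes of the other shifts were not tested. Depth is unknown, and 2 libraries a group limit the precision.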
